A study of Mus musculus with 2 samples.

Results

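The boundaries described here are those at the ends of the mouse autosomes in the genome of mature olfactory sensory neurons. A boundary was taken when its midpoint lay within 5 Mb of the last assembled base of its chromosome, the telomere side, or of the first assembled base, the centromere side. This rule uses position alone and gave 578 of the 6994 autosomal boundaries and of the 7367 boundaries in the whole list, with 319 on the telomere side and 259 on the centromere side. The other 6416 autosomal boundaries form the interior.

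The neurons express the odorant receptor gene Olfr1507, also named MOR28, and were sorted by fluorescence from the olfactory epithelium of adult MOR28-GFP mice of strain 129P2/OlaHsd and mixed sex. No treatment is listed. There was 1 group of 2 biological replicates, with 170000 and 220000 cells, fixed with 1% formaldehyde for in situ Hi-C with the enzyme DpnII, and how many animals each came from has no statement in the labels. The authors called boundaries on both replicates combined, so no value below has a replicate error, and the depth is unknown. The list holds no expression values, so the labelled cell type could not be checked against its marker genes.

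Hi-C ligates and sequences DNA that was in contact inside the nucleus, and a boundary marks a place that few such contacts span, between neighbouring domains. Mouse autosomes carry the centromere close to one end, where satellite repeats stand in the genome as an unassembled gap, and a long arm that runs to a telomere at the other end. The centromere side therefore starts at the first base after that gap, at 3000001 to 3100001 in GRCm38, and not at a gene-bearing short arm. CTCF is a DNA-binding protein that, together with cohesin, is known to hold many boundaries, and active promoters are another class of site where boundaries are known to lie.

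The sequences of CTCF core motif matches are shown first. The share of boundaries with such a match was higher on the telomere than the centromere side on 16 of 19 autosomes. This difference did not pass the test after adjustment (adjusted permutation p = 0.138). Windows of 25 kb laid end to end differed in the same direction, with a match in 16.8% on the telomere side and 10.3% on the centromere side. The matches printed are the nearest to the midpoint at the 4 strongest boundaries of each side that have one outside annotated exons. The search covered 25 kb around each midpoint, which is wider than the 5000 bp interval of a boundary. The matches at Fadd (-1.67 kb from the midpoint), Topaz1 (-0.57 kb) and Dab2 (1.99 kb) lay inside the interval. Those at Ttc34 (4.88 kb), Gm14496 (-10.58 kb), Frmd4a (-12.28 kb), Fzd1 (-4.03 kb) and Ldhal6b (12.13 kb) lay outside it. Each run of 60 bases was read from GRCm38 (RefSeq) on the strand of the motif, 5′ to 3′, with the motif in capitals, and is named by the nearest protein-coding gene.
Fadd, telomere side (chr7:144585805-144585864, plus strand): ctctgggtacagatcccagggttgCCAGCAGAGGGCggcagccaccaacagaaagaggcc
Ttc34, telomere side (chr4:154837348-154837407, plus strand): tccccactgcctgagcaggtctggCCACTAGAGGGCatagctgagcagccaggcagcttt
Gm14496, telomere side (chr2:181921887-181921946, plus strand): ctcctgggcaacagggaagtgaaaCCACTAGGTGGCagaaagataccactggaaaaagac
Topaz1, telomere side (chr9:122736902-122736961, plus strand): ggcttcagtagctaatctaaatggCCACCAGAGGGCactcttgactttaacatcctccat
Frmd4a, centromere side (chr2:3800190-3800249, minus strand): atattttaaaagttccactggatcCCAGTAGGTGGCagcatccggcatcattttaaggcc
Fzd1, centromere side (chr5:4948443-4948502, minus strand): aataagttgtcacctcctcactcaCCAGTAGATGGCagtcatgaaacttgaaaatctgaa
Ldhal6b, centromere side (chr17:5429599-5429658, plus strand): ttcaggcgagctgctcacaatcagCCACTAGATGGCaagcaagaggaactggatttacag
Dab2, centromere side (chr15:6209463-6209522, minus strand): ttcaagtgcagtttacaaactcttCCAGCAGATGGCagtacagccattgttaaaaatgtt

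The 4 boundaries on the telomere side had strengths of 2.47 (Fadd), 2.39 (Ttc34), 2.29 (Gm14496) and 2.16 (Topaz1). Those on the centromere side had strengths of 2.55 (Frmd4a), 1.69 (Fzd1), 1.53 (Ldhal6b) and 1.46 (Dab2). Strength is the authors' score for each boundary, on an unstated scale, and the authors class a boundary as strong from 0.5 upwards. A match is a description of the reference sequence and not evidence that CTCF is bound there.

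**Figure D1:**
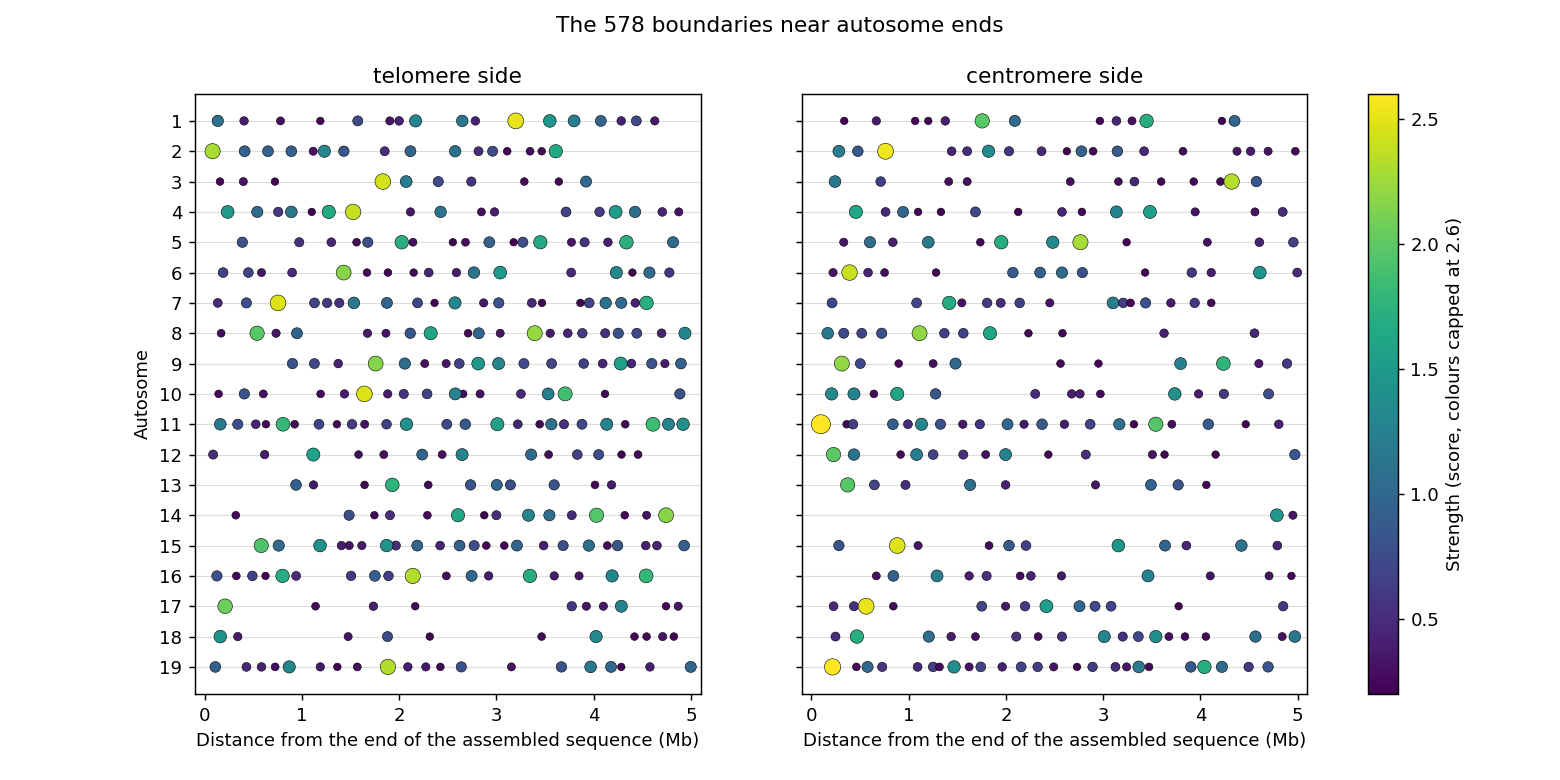
Positions of all 578 boundaries near autosome ends, as distance in Mb from the last assembled base (left panel, telomere side) or the first (right panel, centromere side), with 1 row per autosome. Size and colour give strength. The centromere side of chromosome 14 is empty up to 4787 kb, and the strongest of the boundaries shown lies 97.5 kb into the centromere side of chromosome 11.

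Boundaries were denser on the telomere side than in the interior on most autosomes, but the difference did not pass the test after adjustment. On the telomere side there were 3.38 ± 0.854 boundaries per Mb of assembled sequence, on the centromere side 2.74 ± 0.968 and in the interior 2.91 ± 0.218 (SD, 19 autosomes). The telomere side exceeded the interior of the same chromosome by 0.473 per Mb (SE 0.187, 1.16-fold), with 15 of 19 autosomes in that direction (permutation p = 0.0230, adjusted 0.138). It exceeded the centromere side by 0.641 per Mb (SE 0.251), in 14 of 19 autosomes (permutation p = 0.0203, adjusted 0.138). The centromere side differed from the interior by -0.167 per Mb (SE 0.199), and was lower in 13 of 19 autosomes (permutation p = 0.418, adjusted 0.664). Each p is two-sided, from random sign changes of the differences within chromosomes, and was adjusted over the 18 comparisons of this kind. None of the 18 passed 0.05 after adjustment and 4 did before it. The 19 autosomes come from 1 map and are not biological replicates, so these p-values measure the spread between chromosomes.

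High densities of the long-arm ends were not limited to the outer 5 Mb. In steps of 1 Mb the telomere side averaged 3.03 to 3.58 per Mb inside the limit, 2.68 in the first step outside it and 3.53 and 3.48 in the next steps, 6 to 8 Mb from the end. It was 2.32 at 10 to 11 Mb and 3.66 at 14 to 15 Mb.

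The ends varied far more among themselves than the interiors did. Densities on the telomere side ran from 2.0 per Mb on chromosome 3 to 5.0 on chromosome 11, with a median of 3.44. Those of the centromere side ran from 0.4 per Mb on chromosome 14 to 5.13 on chromosome 19, with a median of 2.63. The interiors ran from 2.49 per Mb on chromosome 14 to 3.42 on chromosome 11. An end held a mean of 16.8 boundaries (telomere side) or 13.6 (centromere side), against 338 in an interior, so its density rests on far fewer calls. The largest excess over its own interior on the telomere side was that of chromosome 15, at 1.78 per Mb, and the largest deficit that of chromosome 17, at -1.13. Among the centromere sides, that of chromosome 19 stood 2.13 per Mb above its interior and chromosome 14 stood at -2.09.

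**Figure D2:**
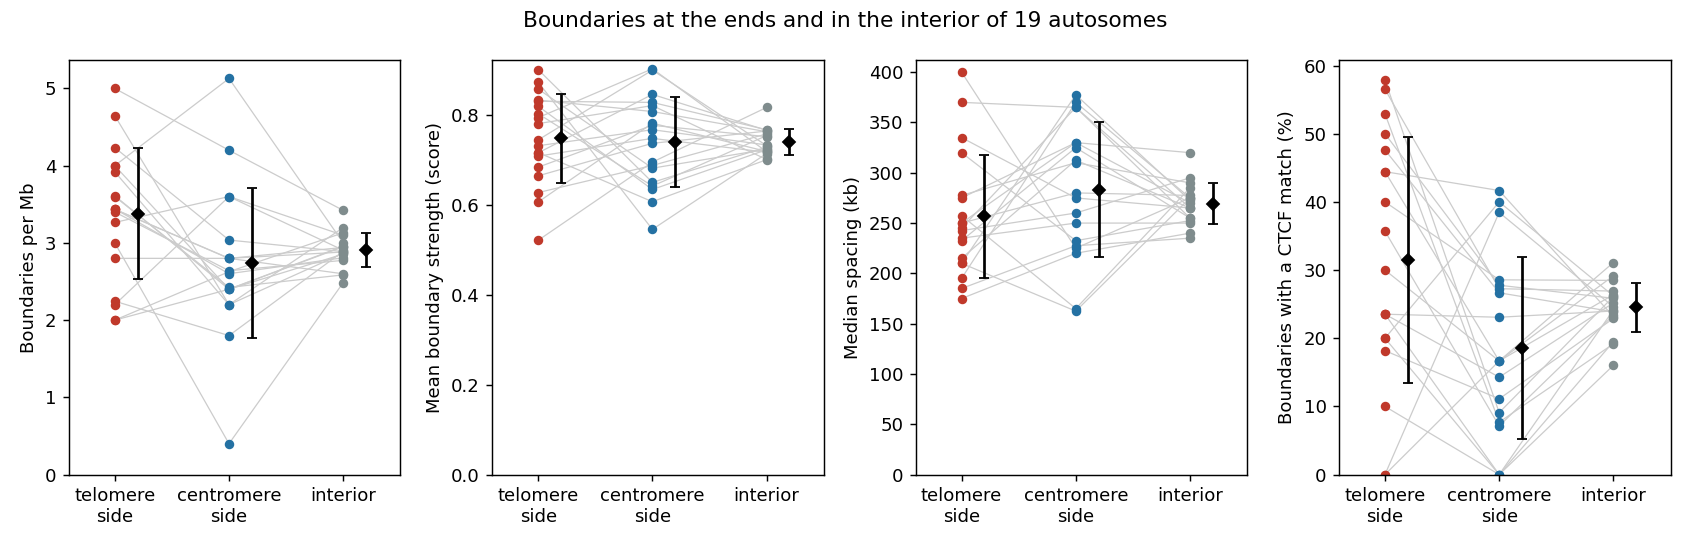
Boundary density, mean strength, median spacing and share of boundaries with a CTCF match, for the telomere side, the centromere side and the interior. Each point is 1 of 19 autosomes, grey lines join the zones of a chromosome, and diamonds with bars are the mean ± SD. The interiors are tightly grouped, while the 2 kinds of end overlap them on both sides in every panel.

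Mean strength differed between the ends and the interior by little, and no difference passed the test. It was 0.749 ± 0.0994 on the telomere side, 0.740 ± 0.0997 on the centromere side and 0.740 ± 0.0289 in the interior (SD, 19 autosomes). The telomere side differed from the interior by 0.00853 (95% interval -0.0471 to 0.0641, adjusted permutation p = 0.970). The centromere side differed from it by 0.000441 (95% interval -0.0480 to 0.0489, adjusted permutation p = 0.986). Strong boundaries made up 177 of 319 on the telomere side (55.5%, 95% Wilson interval 50 to 60.8), 139 of 259 on the centromere side (53.7%, 47.6 to 59.6) and 3600 of 6416 in the interior (56.1%, 54.9 to 57.3). Over all autosomal boundaries the strong share was 56%. Averaged over chromosomes, the strong share differed from the interior by -2.39 points on the telomere side (SE 2.97, adjusted permutation p = 0.664; -0.579 points without chromosome 18 and -0.234 points with zones of 10 Mb) and by -2.90 points on the centromere side (SE 2.79, adjusted permutation p = 0.664). Boundaries of at least 0.996, the upper quartile over all autosomal ones, made up 26.6% on the telomere side, 23.9% on the centromere side and 25.0% in the interior. Intervals on shares cover counting error only.

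Within the centromere side, strength was highest in the outermost 1 Mb, a split made after the values were seen and therefore given with no test. The 54 boundaries there had a mean strength of 1.01 ± 0.801 (SD over boundaries), and the 205 in the next 4 Mb 0.657 ± 0.460. Averaged by chromosome, the outermost 1 Mb exceeded the rest of the zone by 0.326 (SE 0.0858), in 16 of 18 autosomes, with chromosome 14 left out because it had no boundary in that stretch. Chromosomes 1 and 5 went the other way. Of the 10 strongest boundaries of the centromere side, 7 lay in the outermost 1 Mb. On the telomere side the outermost 1 Mb had 57 boundaries with a mean strength of 0.804 ± 0.574, and the next 4 Mb 262 with 0.752 ± 0.537. There the difference by chromosome was 0.0973 (SE 0.123), positive in 9 of 19 autosomes. Unique 32-base sequence, a measure of how much of a region reads can be placed in, averaged 68.3% in the outermost 1 Mb of the centromere side and 73.9 to 79.0% in the next 4 Mb. On the telomere side it was lower in the outermost 1 Mb as well, at 79.0% against 83.6 to 90.3% in the next 4 Mb. Its part in the strengths was not tested.

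**Figure D3:**
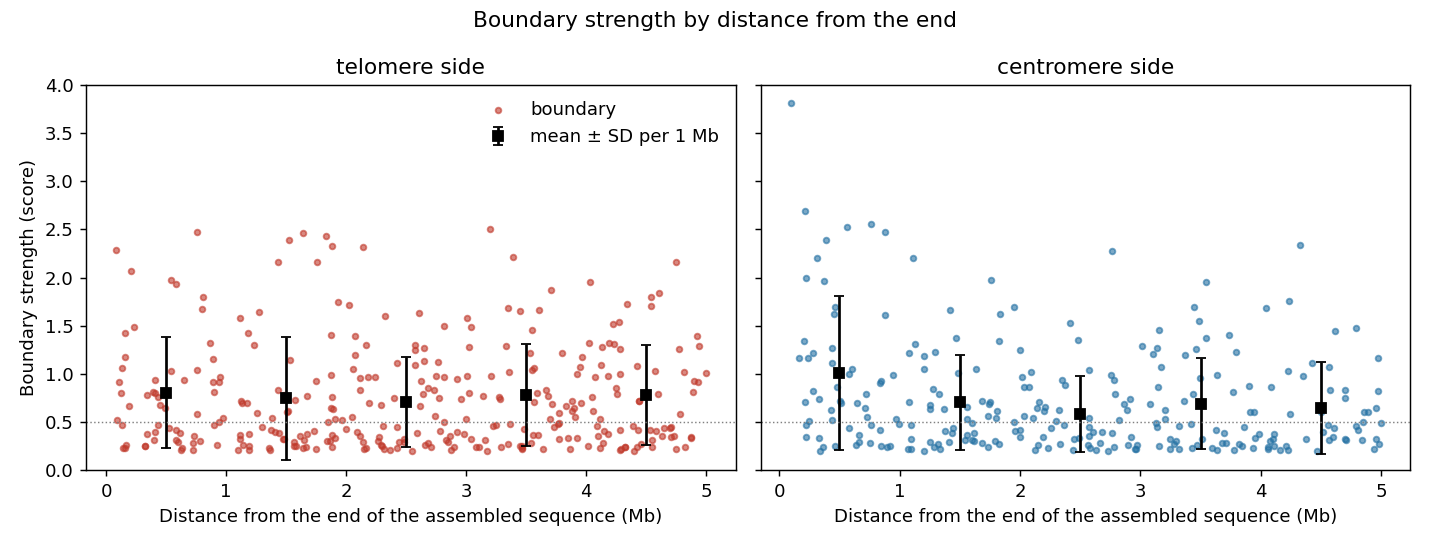
Strength of each boundary against distance in Mb from the last (left, telomere side) or first (right, centromere side) assembled base. Squares with bars are the mean ± SD of the boundaries in each 1 Mb, and the dotted line is the limit of the strong class at 0.5. On the centromere side the first square stands at 1.01 and the others between 0.582 and 0.704.

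The outermost boundary lay a median of 160 kb from the last assembled base on the telomere side, with a range of 80.7 kb on chromosome 2 to 939 kb on chromosome 13. The median of the centromere side was 248 kb from the first assembled base, from 97.5 kb on chromosome 11 to 4787 kb on chromosome 14. The outermost boundary was a strong one on 14 of 19 telomere sides and on 14 of 19 centromere sides, with median strengths of 0.814 and 1.17. The strong share over all autosomal boundaries was 56%. The count of the centromere side includes the boundary of chromosome 14 at 4787 kb. A boundary needs contacts on both of its sides, and how close to the assembled edge the authors' calls can reach is unstated. Density in the outermost 500 kb was 2.84 per Mb of span on the telomere side and 2.84 on the centromere side, so boundaries were called in that stretch on both. Without it the telomere side exceeded the interior by 0.524 per Mb (adjusted permutation p = 0.137).

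Spacing between neighbouring boundaries was shorter than in the interior on 14 of 19 telomere sides and longer on 11 of 19 centromere sides, and neither difference passed the test. The median spacing of a chromosome averaged 257 ± 61.2 kb on the telomere side, 283 ± 67.01 kb on the centromere side and 269 ± 20.05 kb in the interior (SD, 19 autosomes). The telomere side differed from the interior by -12.5 kb (SE 14, adjusted permutation p = 0.664), the centromere side by 13.9 kb (SE 15.4, adjusted permutation p = 0.664). Chromosome 14 enters the centromere side with 1 spacing of 165 kb, since the stretch before its outermost boundary is not a spacing. Without this chromosome the centromere side differed from the interior by 21.4 kb. Pooled over chromosomes, the quartiles were 175 and 330 kb on the telomere side, 180 and 408 kb on the centromere side and 185 and 405 kb in the interior. Spacings over 1000 kb made up 1.94% of 309 on the telomere side, 2.44% of 246 on the centromere side and 3.15% of 6420 in the interior. Among strong boundaries alone the telomere side differed from the interior by 121 kb, the opposite sign (SE 83.7, adjusted permutation p = 0.413).

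Some ends held boundary-free stretches of over 1000 kb. The longest on the telomere side was 1610 kb on chromosome 17, between the boundaries at 91110001 to 91115000 and 92720001 to 92725000, with no protein-coding transcription start site (TSS). The next was 1440 kb on chromosome 3 with 6 TSSs, from Cryz, a quinone reductase gene, to Lrriq3. The third, of 1165 kb on chromosome 14, held Nalcn, the gene of a sodium leak channel, and Itgbl1. The longest of the centromere side was 1095 kb on chromosome 13, between 7060001 to 7065000 and 8155001 to 8160000, again with no protein-coding TSS. It was followed by 1080 kb on chromosome 9, with 4 TSSs from the glutamate receptor gene Gria4 to the caspase gene Casp12, and by 1075 kb on chromosome 17, with 12 TSSs from Ezr, a gene of a protein that links membrane and actin, to Fndc1.

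The stretch before the outermost boundary of chromosome 14 was longer than any of these. The centromere side of that chromosome had 2 boundaries against an interior density of 2.49 per Mb, and the outermost lay at 7785001 to 7790000 (strength 1.48, nearest TSS that of Gm26661). It held 103 protein-coding TSSs, and 98 of these genes have symbols that begin with Gm, the prefix of predicted mouse gene models. Unique 32-base sequence was 10.1% of this end, the lowest of all 38 ends, against 59.8 to 88.6% on the other 18 centromere sides. Leaving out chromosome 14 moved the difference between centromere side and interior to -0.0609 per Mb.

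The telomere sides were rich in genes on several chromosomes and almost empty of them on others. They held 12.05 ± 9.73 protein-coding TSSs per Mb, the centromere sides 9.60 ± 9.32 and the interiors 8.55 ± 2.39 (SD, 19 autosomes). The medians were 8.2, 6.4 and 7.67 per Mb. The telomere side was above its own interior on 10 of 19 autosomes, and the centromere side was below its own on 13 of 19. In all, 1136 of the 20807 autosomal protein-coding TSSs lay on the telomere side (5.46%, in 3.94% of the assembled sequence, which held 4.56% of the boundaries). The centromere side held 904 (4.34%, in 3.95% of the sequence with 3.70% of the boundaries). The telomere side of chromosome 10 had most, with 166, and that of chromosome 17 fewest, with 4. Of the centromere sides that of chromosome 19 had most, with 185, and chromosome 3 fewest, with 8.

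**Figure D4:**
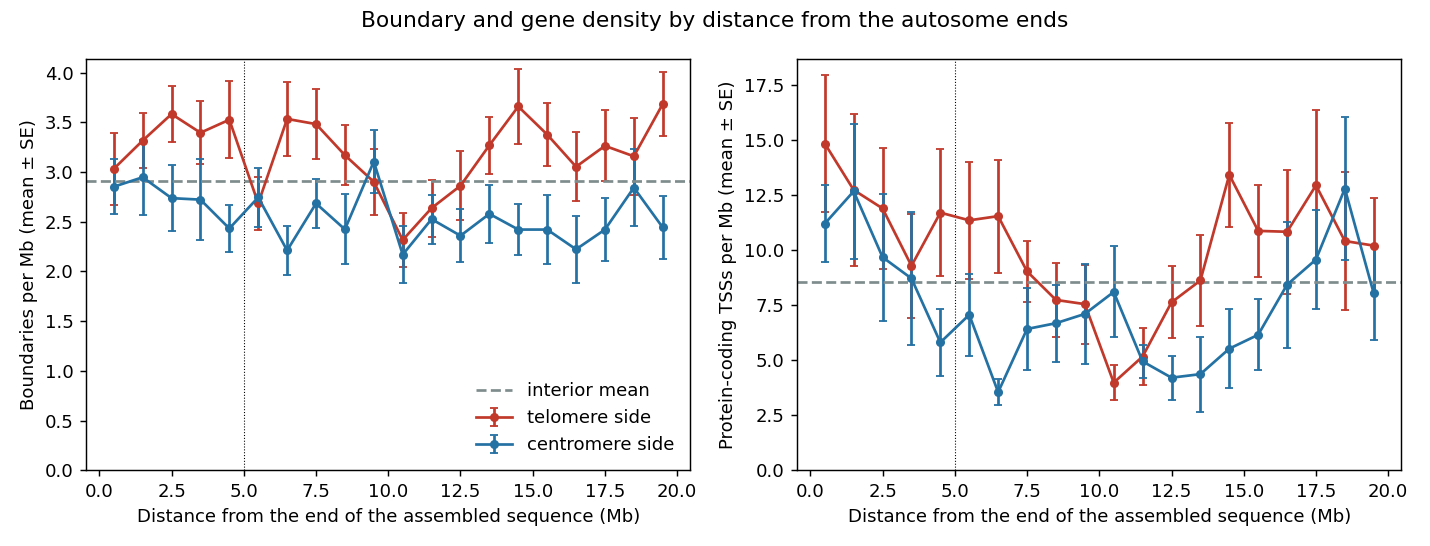
Boundaries per Mb (left) and protein-coding TSSs per Mb (right) in steps of 1 Mb from the last assembled base (telomere side) and the first (centromere side), as mean ± SE over 19 autosomes. The dashed line is the interior mean and the dotted line the 5 Mb limit. On the telomere side the 5 steps inside the limit lie between 3.03 and 3.58 boundaries per Mb, and the 15 steps farther in between 2.32 and 3.68.

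Odorant receptor, vomeronasal receptor and keratin genes at the ends lay mostly on 1 chromosome a side. Zinc finger genes did so on the centromere side, while on the telomere side they were spread over 8 chromosomes. Odorant receptor genes, of which each such neuron expresses a single one, numbered 74 of 1128 on the telomere side, 60 of them on chromosome 10 and 14 on chromosome 7, and 10 on the centromere side. Vomeronasal receptor genes, for pheromone detection, numbered 6 of 329 on the telomere side and 23 on the centromere side, 20 of these on chromosome 7. Of 385 zinc finger genes 15 lay on the telomere side and 23 on the centromere side, 16 of these 23 on chromosome 7. Of 53 keratin genes 26 lay on the telomere side, all on chromosome 15. No defensin gene of 64 lay at either side.

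Some members of the fixed lists had their TSS at an end boundary, that is in its interval widened by 10 kb on each side. The counts are small, and no list was tested against the background. The background is that 13.2% of all autosomal protein-coding TSSs lay at a boundary, with 14.1% on the telomere side, 10.5% on the centromere side and 13.3% in the interior. Of the odorant receptor genes, 3 of 74 had it there on the telomere side, Olfr826 (strength 0.804), Olfr771 (0.382) and Olfr785 (0.247), and 2 of 10 on the centromere side, Olfr15 (0.925) and Olfr1344 (0.795). Vomeronasal receptor genes had it there in 1 of 6 cases on the telomere side, Vmn2r86 (0.231), and in 2 of 23 on the centromere side, Vmn1r55 (0.649) and Vmn1r59 (0.325). Zinc finger genes had it there in 1 of 15 cases on the telomere side, Zfp512b (0.935), and in 4 of 23 on the centromere side, led by Zfp174 (0.925), Zfp667 (0.272) and Zfp438 (0.271). Zfp174 and Olfr15 shared 1 boundary on chromosome 16. Of the keratin genes Krt84 was at one, with a strength of 0.450.

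Of 95 genes matched by symbol as cytosolic ribosomal protein genes, 9 lay on the telomere side and 7 on the centromere side. These include Rps6kc1 on the telomere side and Rps6ka2, Rps6kb2 and Rps6ka4 on the centromere side, which are genes of the ribosomal S6 kinase group and not of ribosomal proteins, and Rps12-ps3 on the telomere side, whose symbol marks a pseudogene. Of the 9, only Rpl41, of the large ribosomal subunit, was at a boundary (chromosome 10, 128545001 to 128550000, strength 0.549), and of the 7 none was. In the interior 30 of 79 were. Of 100 cytochrome P450 genes 3 lay on the telomere side and 2 on the centromere side, and 0 of these 5 were at a boundary. With so few members at the ends, no difference from the interior can be read from these counts.

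Some genes listed for the olfactory neuron lay at the ends, too few for a difference from other genes to be read. Of all autosomal protein-coding TSSs 5.46% lay on the telomere side and 4.34% on the centromere side, and 13.2% lay at a boundary. The mature neuron list had 9.52% on the telomere side and 4.76% on the centromere side, and the regulators 9.52% on each. Of 21 autosomal genes listed for the mature neuron, Gnb1, a G protein subunit gene, and Nrp1, an axon guidance receptor gene, lay on the telomere side and Adcy3, the adenylyl cyclase gene of odorant transduction, on the centromere side. Of these, only Nrp1 was at a boundary (chromosome 8, 128350001 to 128355000, strength 0.969, 6.10 kb from the TSS). Of 21 regulators, Emx2, a homeobox gene, and Cbx5, a heterochromatin protein gene, lay on the telomere side, and Dlx5 and Dlx6, homeobox genes, on the centromere side, with only Emx2 at a boundary (strength 2.33). Of 11 immature neuron genes 0 were at the ends. Of 16 genes of other mucosal cells, Trpm5, an ion channel gene of chemosensory cells, and Krt5, a keratin gene of horizontal basal cells, lay on the telomere side, and neither was at a boundary.

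The share of boundaries that lay at a promoter did not differ from the interior beyond the spread between chromosomes on either side. A protein-coding TSS was in the window of 115 of 319 on the telomere side (36.05%, 95% Wilson interval 30.98 to 41.46), 75 of 259 on the centromere side (28.96%, 23.77 to 34.76) and 1884 of 6416 in the interior (29.4%, 28.3 to 30.5). Over all autosomal boundaries the share was 29.7%. By chromosome the telomere side differed from the interior by 3.69 points (SE 4.56, adjusted permutation p = 0.664; 1.05 points without chromosome 10) and the centromere side by 0.118 points (SE 5.95, adjusted permutation p = 0.986). The centromere side of chromosome 14 had a share of 100% from only 2 boundaries. Without that chromosome the centromere side differed from the interior by -3.89 points. The shares ran from 0% on 2 telomere sides, those of chromosomes 17 and 18, to 76.5% on chromosome 10. Windows of 25 kb laid end to end held a TSS in 22.9% of cases on the telomere side, 18.6% on the centromere side and 16.9% in the interior, so the share at boundaries was 1.57, 1.55 and 1.74 times that of windows. TSSs on both strands lay in the window of 26 boundaries on the telomere side (8.15%), 10 on the centromere side (3.86%) and 379 in the interior (5.91%).

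CTCF motif matches were found at more boundaries of the telomere side than of the centromere side, without passing the test after adjustment. A match on either strand lay in the window of 110 of 319 boundaries on the telomere side (34.5%, 95% Wilson interval 29.5 to 39.9), 54 of 259 on the centromere side (20.8%, 16.3 to 26.2) and 1559 of 6416 in the interior (24.3%, 23.3 to 25.4). Over all autosomal boundaries the share was 24.6%. By chromosome the telomere side exceeded the centromere side by 12.9 points (SE 4.92), in 16 of 19 autosomes (permutation p = 0.0190, adjusted 0.138). It differed from the interior by 6.95 points (SE 4.16, permutation p = 0.113, adjusted 0.406), and the centromere side by -5.97 points (SE 2.80, lower in 12 of 19, permutation p = 0.0482, adjusted 0.217). None of these passed after adjustment. With chromosome 17 left out, whose telomere side had no match at any of its 10 boundaries, the first difference was 15.8 points and passed (adjusted permutation p = 0.0396). With the 5000 bp interval alone in place of the window it was 4.79 points (adjusted permutation p = 0.138). With zones of 3 Mb it was 5.32 points over 18 autosomes (adjusted permutation p = 0.924), and the telomere side against the interior was at 1.56 points (adjusted permutation p = 0.948). With zones of 10 Mb the difference between the sides was 12.4 points and passed as well (adjusted permutation p = 0.0252), as did the telomere side against the interior, at 7.83 points (adjusted permutation p = 0.0252).

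The motif itself was denser on the telomere sides. There were 7.93 ± 4.07 matches per Mb there, 4.57 ± 2.87 on the centromere sides and 5.04 ± 0.834 in the interiors (SD, 19 autosomes). Windows of 25 kb laid end to end held a match in 16.8%, 10.3% and 11.1% of cases on the telomere side, on the centromere side and in the interior. The share at boundaries was 2.05, 2.03 and 2.20 times these. Boundaries with a match had a mean strength of 0.823 ± 0.528 on the telomere side (SD over 110 boundaries), 0.727 ± 0.445 on the centromere side (54) and 0.871 ± 0.535 in the interior (1559). Those without a match had 0.729 ± 0.550, 0.732 ± 0.595 and 0.695 ± 0.509. On the centromere side the means with and without a match were thus close, while the medians were 0.611 with a match and 0.512 without.

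Density went with genes, base composition and sequence uniqueness across the telomere sides, while the relations were weaker across the centromere sides. Across the 19 telomere sides Pearson's r of density was 0.663 with TSSs per Mb (Spearman's rho 0.723), 0.874 with GC content (rho 0.806) and 0.735 with unique sequence (rho 0.701). Without the 2 ends farthest from the median of each property the values were 0.740, 0.821 and 0.764. Across the 19 centromere sides r was 0.399 with TSSs per Mb (rho 0.169), 0.583 with GC content (rho 0.556) and 0.660 with unique sequence (rho 0.528), and without the 2 farthest ends -0.234, 0.127 and 0.631. For the centromere side the values with genes and GC content thus depended on which ends were included. The ends left out were chromosomes 19 and 7 for genes and 19 and 11 for GC content. That of chromosome 14 stayed in for both, with 20.6 TSSs per Mb, a density of 0.4 per Mb and 10.1% unique sequence. Across the 19 interiors r was 0.727 with TSSs per Mb (rho 0.753), 0.770 with GC content (rho 0.837) and 0.440 with unique sequence (rho 0.388). The relations to genes and GC content were thus not particular to the ends. All these correlations are descriptions over points that share 1 map and the same reference, and the 3 properties vary together.

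The telomere sides had a GC content of 43.8 ± 3.71%, the centromere sides 41.7 ± 2.43% and the interiors 41.9 ± 0.798% (SD, 19 autosomes). Unique 32-base sequence made up 86.4 ± 5.35%, 75.3 ± 17.0% and 85.1 ± 2.31%, and was lower on the centromere side than in the interior on 17 of 19 autosomes. In stretches of 1 Mb with a GC content over 44.8%, density was 4.16 per Mb on the telomere side, 4.12 on the centromere side and 4.13 in the interior, and 44 of the 95 stretches of the telomere side were in this class against 15 of those of the centromere side. In stretches with more than 13 TSSs density was 4.16, 3.26 and 3.96 per Mb. On the centromere side this class includes sequence of chromosome 14, an end with 103 TSSs, 10.1% unique sequence and 2 boundaries. What that end adds to this value and to those with TSS classes below was not tested. Where expected densities were taken from interior stretches of the same GC class, the excess of the telomere side over the interior was 0.109 per Mb (SE 0.0995, permutation p = 0.285). With classes of TSS number it was 0.275 (SE 0.0937, permutation p = 0.00949, adjusted 0.171) and with classes of unique sequence 0.347 (SE 0.136, permutation p = 0.0203, adjusted 0.183). The telomere side exceeded the centromere side by 0.235 per Mb with GC classes (permutation p = 0.252), 0.508 with TSS classes (permutation p = 0.0356) and 0.117 with classes of unique sequence (permutation p = 0.579). None of these passed after adjustment (0.725, 0.213 and 0.868). The centromere side stood at -0.126, -0.233 and 0.230 per Mb against the interior under the same 3 settings, the last with the opposite sign to the unadjusted value.

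**Figure D5:**
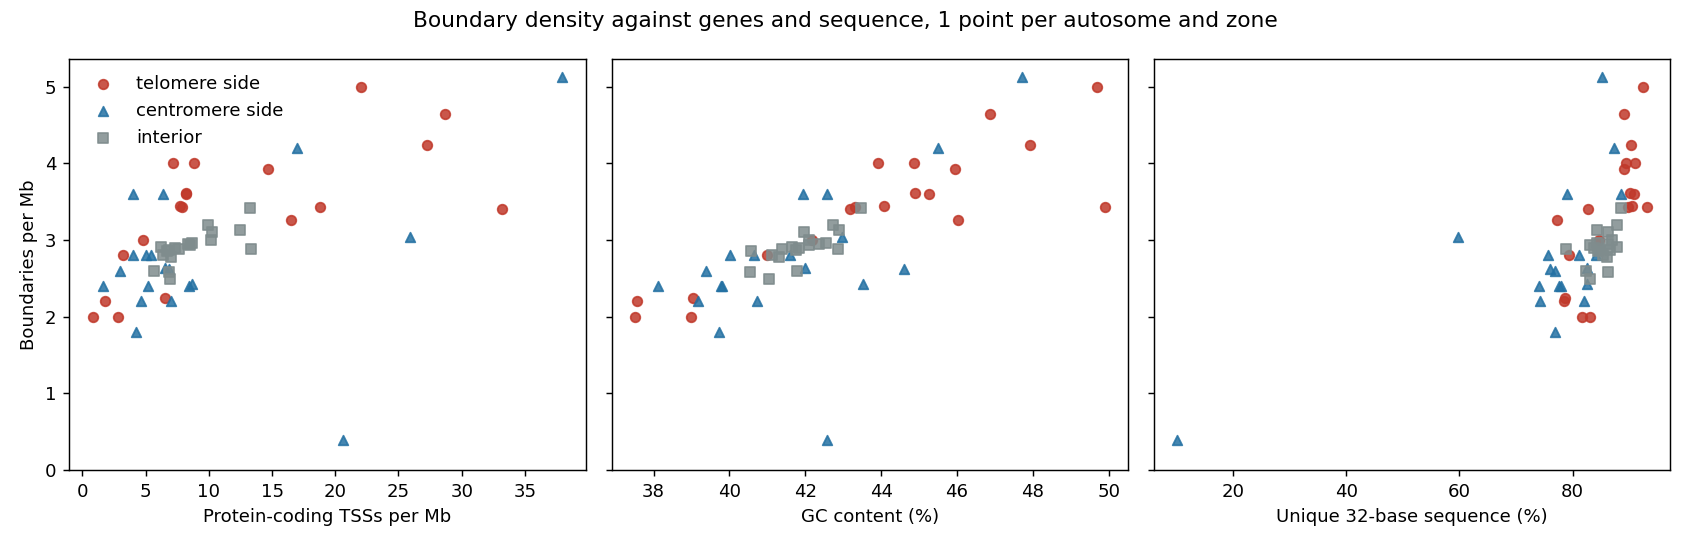
Boundary density per Mb against protein-coding TSSs per Mb (left), GC content in percent (middle) and unique 32-base sequence in percent (right). Each point is the telomere side, the centromere side or the interior of 1 autosome. The densest telomere side, that of chromosome 11, has a GC content of 49.7%, and the point at 10.1% unique sequence is the centromere side of chromosome 14.

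The strongest boundaries of the telomere side lay beside genes of several kinds. The strongest (2.51) was on chromosome 1 at 192170001 to 192175000, in no annotated gene and 18.3 kb from the TSS of Kcnh1, a voltage-gated potassium channel gene. It ranked 52 among all autosomal boundaries. The next, on chromosome 7 at 144585001 to 144590000 (2.47), overlapped exon sequence of Ano1, a calcium-activated chloride channel gene, and lay 5.04 kb from the TSS of Fadd, an adaptor gene of death receptor signalling. That on chromosome 10 at 128950001 to 128955000 (2.47) overlapped exon sequence of the integrin gene Itga7 and was nearest to the TSS of Mettl7b. The fourth, at 158105001 to 158110000 on chromosome 3 (2.43), lay inside Lrrc7, a gene of a postsynaptic density protein, with the nearest TSS that of Lrrc40 at 70.8 kb.

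The others of the 10 were nearest to Ttc34 (2.39), Emx2 (2.33), Psmg1, a proteasome assembly gene (2.32), Gm14496 (2.29), Map3k21, a protein kinase gene (2.22), and Oxgr1, a receptor gene for oxoglutarate (2.16). The boundary nearest to Gm14496 was the outermost of chromosome 2, 80.7 kb from the last assembled base. Of the 10, 5 had a TSS in the window and 3 a CTCF match.

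The strongest boundary of the centromere side (3.81) ranked 2 among all autosomal boundaries. It lay on chromosome 11 at 3195001 to 3200000, inside the model of Drg1, a GTP-binding protein gene, and had the TSSs of Sfi1, a centrosome protein gene, and Eif4enif1, a gene of a transporter of a translation factor, in its window. Chromosome 19 followed at 3215001 to 3220000 (2.69), in no annotated gene, 65.4 kb from the TSS of the mitochondrial ribosomal gene Mrpl21, and chromosome 2 at 3810001 to 3815000 (2.55), 205 kb from that of Frmd4a. That on chromosome 17 at 3560001 to 3565000 (2.52) lay 4.72 kb from the TSS of Tfb1m, a gene of a mitochondrial ribosomal RNA methyltransferase. The remaining 6 were nearest to Fbxo4 (2.47), Samd9l (2.39), Pkia, a gene of a protein kinase A inhibitor (2.34), Steap1 (2.27), Alkbh8, a transfer RNA methyltransferase gene (2.20), and Cd209f, a lectin gene (2.20). Of these 10, 3 had a TSS in the window and 1 a CTCF match. These lists were ranked by strength, so their strengths are a description.

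The ends with most and fewest boundaries closed with boundaries of different strength. The telomere side of chromosome 11, with 25 boundaries, ended with one of 1.17 nearest to Ptchd3, 160 kb from the last base. Those of chromosomes 3 and 17, with 10 each, ended with one of 0.233 nearest to Wls, a Wnt secretion gene, at 157 kb, and one of 2.06 nearest to Mettl4, a methyltransferase gene, at 210 kb. The centromere side of chromosome 19, with 25, began with the boundary nearest to Mrpl21 (2.69) at 218 kb.

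The boundaries next to the limit of 5 Mb are given as a description. The last boundaries inside it on the telomere side, on chromosomes 19, 8 and 15, had strengths of 1.005, 1.29 and 0.912, and the first ones outside it, on chromosomes 9, 5 and 17, 0.424, 1.49 and 0.242. For the centromere side the last inside, on chromosomes 6, 2 and 12, had 0.489, 0.268 and 0.826, and the first outside, on chromosomes 15, 14 and 4, 0.361, 0.533 and 0.263. Between 4.5 and 5 Mb there were 29 boundaries on the telomere side and 26 on the centromere side, and between 5 and 5.5 Mb 23 and 25.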

How the data were processed

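The labels describe in situ Hi-C of 2 replicates of sorted neurons. Per the series' design text, the authors used GRCm38, combined the contact lists of both replicates and called boundaries on the combined matrix. The deposited list gives a 5000 bp interval, a class and a strength, a score with a lowest value of 0.2 whose scale is not stated. No source used here names the caller, its window or the filters, the depth is unknown, and intervals on shares cover counting error only.

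The list was joined to the GRCm38 sequence and to GENCODE M21 genes, of which 20807 protein-coding ones lie on autosomes. The X chromosome was left out. Zones, features and spacings (assigned by the midpoint of the interval) were computed per autosome with Python 3.11.15, numpy 2.4.6, pandas 2.3.3 and scipy 1.17.1. A boundary window is the interval with 10 kb added on each side. CTCF core motif matches were searched on both strands. A spacing is the distance between midpoints. Unique sequence is the share of 32-base sequences, taken every 250 bp, that occur once on chromosomes 1 to 19, X and Y.

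Differences within chromosomes were tested by a two-sided permutation test with 100000 random sign changes and adjusted by Benjamini and Hochberg over 18 comparisons, with 0.05 as threshold, and the test was tried on simulated boundaries. The 95% intervals of differences are t intervals over chromosomes. Sequence properties were handled by classes of interior 1 Mb stretches (5 each). Alternatives were other zone widths and interiors, strong boundaries, other windows and genes, other summaries and leaving out each autosome. The members and lists were chosen with earlier results of these data known. Named genes followed a rule: the nearest TSS of the 10 strongest boundaries per side, the first and last gene of the 3 longest intervals per side, the outermost boundary of the fullest and emptiest ends, and up to 3 members per list. Genes beside printed sequences or inside which a boundary lies were named after their values were seen. Chromosome 18 was left out of the sequences shown.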

Additional observations from a re-analysis of the deposited data

How the results depend on the processing

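No analysis paired by sample was possible because the list combines both replicates of a single group, and the tests were paired by chromosome alone. Of 84 values under 13 alternatives 68 kept their sign and side of the threshold, 3 passed it and 13 changed sign without a call. With zones of 10 Mb the telomere side passed against the centromere side for density (0.589 per Mb) and CTCF share (12.4 points) and against the interior for CTCF share (7.83 points). The density difference between the sides was 0.235 per Mb with GC classes and 0.117 with classes of unique sequence, and did not pass under either. Changes of sign with zones of 3 Mb were, for the telomere against the centromere side, mean strength (-0.00706), strong share (-3.50 points) and spacing (8.33 kb), for the telomere side against the interior, spacing (23.0 kb), and for the centromere side against the interior, strong share (0.0513 points) and TSS share (-2.63 points). For the centromere side against the interior, mean strength changed sign with zones of 10 Mb (-0.0242) and with medians (-0.00858), TSS share with zones of 10 Mb (-3.72 points) and with the interval alone (-1.51 points), and density with classes of unique sequence (0.230 per Mb). With strong boundaries alone, the spacing of the telomere side differed by 121 kb from the interior and by 9.08 kb from the centromere side. Leaving out 1 autosome at a time gave -0.000587 to 0.0254 for mean strength of the telomere side against the interior, -0.00979 to 0.00985 for the centromere side against the interior and -0.00967 to 0.0183 between the sides. It gave -1.47 to 2.72 points for the strong share between the sides, -3.89 to 1.95 points for the TSS share of the centromere side against the interior and 10.9 to 15.8 points for the CTCF share between the sides, which passed without chromosome 17. The cause was not tested. Depth is unknown, so what it limits could not be assessed.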

Other observations

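Motif strand around the end boundaries was counted within 50 kb of the midpoint. On the telomere side 72 of 215 matches to the left were on the forward strand (33.5%) and 120 of 183 to the right (65.6%). In the interior the shares were 33.9% of 2660 and 64.6% of 2711. On the centromere side they were 46.5% of 99 and 59.2% of 103, a narrower gap on few matches. The difference between the zones was not tested.

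Runs of at least 4 copies of the telomere repeat TTAGGG, on either strand, were more frequent in the reference sequence of the telomere sides. There were 72 in 95 Mb there (0.758 per Mb), 19 in 95 Mb on the centromere sides (0.2 per Mb) and 250 in 2213 Mb of interior (0.113 per Mb). Every telomere side held at least 1, with up to 8 on chromosome 10, and 7 of the 19 on centromere sides were on chromosome 6. This is a property of the reference and not of these neurons, and its relation to the boundaries was not examined.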
